A study of Mus musculus with 8 samples.

Results

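The 41 genes described here encode transcription factors that mark or pattern the nuclei of the hypothalamus. The list was chosen by name from the known roles of the factors, whose genes were matched by Ensembl identifier to the table of gene counts. All 41 factors were found among the 55890 genes of the table, and all 41 were among the 18637 genes with enough counts to be tested. They were divided into 7 groups by the region in which each factor is best known: 7 arcuate and tuberal, 6 ventromedial, 4 paraventricular, 7 preoptic and suprachiasmatic, 6 lateral and GABAergic, 7 mammillary and posterior, and 4 with broad expression. The comparison addressed whether regional identity, or the tissue taken at dissection, differed between the genotypes.

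Hypothalamic nuclei arise from a sheet of progenitors that is divided into territories by homeodomain, forkhead, LIM and nuclear receptor factors, and many of these factors are kept in the adult neurons of the nucleus. A single factor is seldom confined to a single nucleus, and several also mark the thalamus, the midbrain or the basal forebrain that border the hypothalamus. In RNA from whole tissue, the level of such a factor therefore depends both on how much of each territory was collected and on the expression in each cell.

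The 8 libraries were poly(A)-selected RNA from the hypothalamus of female mice aged 16 weeks, with 2 animals pooled in each. The POMC-C451Af/f pools, 4 in number, came from mice in which a POMC-Cre transgene recombines the floxed C451Af/f allele of *Esr1*, the gene of estrogen receptor alpha, so that the mutation is restricted to cells with a history of POMC-Cre activity. The 4 control pools are called wildtype in the sample labels and homozygous C451Af/f littermates in the study's methods, and neither description gives them the Cre transgene. Library depth, as the total estimated count of a pool, lay between 36095253 and 48942116. Values by pool are given below in the order of replicates 1 to 4, in CPM (counts scaled to the library size after TMM normalization). The labels give no batch or date of preparation.

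*Esr1* was counted in every pool, at 11.6, 12.2, 9.996 and 10.8 CPM in the POMC-C451Af/f pools and at 12.3, 12.8, 11.6 and 16.0 CPM in the controls. The groups overlapped, control replicate 4 was highest, and the gene was lower in POMC-C451Af/f, at -0.23 in log2 fold change, with an unadjusted p under 0.05 (edgeR, adjusted p = 0.878). Counts per gene do not distinguish the mutated transcript from the intact one. The tissue label was checked against regional effector genes, the peptides and enzymes that the neurons of each nucleus make. *Pmch*, the peptide gene of melanin-concentrating hormone neurons, was the most abundant of these 24 genes, with 312.0 CPM in its lowest pool and 630.6 CPM in its highest. *Oxt*, *Avp*, *Hcrt* and *Pomc* were each counted in all 8 pools. *Kiss1*, a peptide gene of arcuate and anteroventral neurons, was at 0 in 6 of 8 pools, and a count of 0 allows up to 0.0843 CPM in the shallowest library. Markers of the hindbrain and of serotonergic neurons were near 0: of 6 genes, 1 had enough counts to be tested, the most abundant was *Tph2* with at most 0.51 CPM, and *Hoxb3*, *Hoxb5* and *Hoxa5* were at 0 in 6, 6 and 7 pools. Summed over these 6 genes, the level was 0.79, 0.86, 0.59 and 0.473 CPM in the POMC-C451Af/f pools and 0.496, 0.458, 0.757 and 0.424 CPM in the controls.

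Some pools stood apart in lists of genes named for tissue that borders the hypothalamus. The lists cannot tell such tissue from hypothalamic cells that express the same genes. A list of 8 thalamic genes summed to 258.0, 170.7, 475.5 and 327.4 CPM in the POMC-C451Af/f pools and to 128.2, 477.8, 203.9 and 211.6 CPM in the controls. High pools were thus found in both genotypes, and all 8 genes had a log2 fold change above 0, with a median of 0.22 and 0 with an unadjusted p under 0.05. A list of 8 midbrain dopaminergic genes summed to 215.5, 161.2, 349.9 and 244.1 CPM in the POMC-C451Af/f pools and to 136.8, 135.3, 164.9 and 181.1 CPM in the controls. POMC-C451Af/f replicate 3 was highest, and the median was 1.05 in log2 fold change. Of the 8 genes, 7 were higher in POMC-C451Af/f at an unadjusted p under 0.05, where 2.70% of all genes were. The lists were chosen with earlier results of these data known, so this count is no independent support for a difference. *Aldh1a1* was the most abundant gene of the midbrain list and *Prkcd* that of the thalamic list, and neither list held a gene at 0 in any pool. As means of the 8 pools, *Aldh1a1* had 92.4 CPM and *En1* 2.12 CPM, so abundant genes weigh most in the midbrain sum. Neither list holds any of the 41 factors. The part of neighbouring tissue in the results below was not tested. Fits that carry the mean of a list as a covariate are given as alternatives. The midbrain list itself tended to be higher in POMC-C451Af/f, so covariate and genotype cannot be fully told apart in its fit. A fold change that shrinks or turns there does not measure a share of midbrain tissue.

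**Figure D1:**
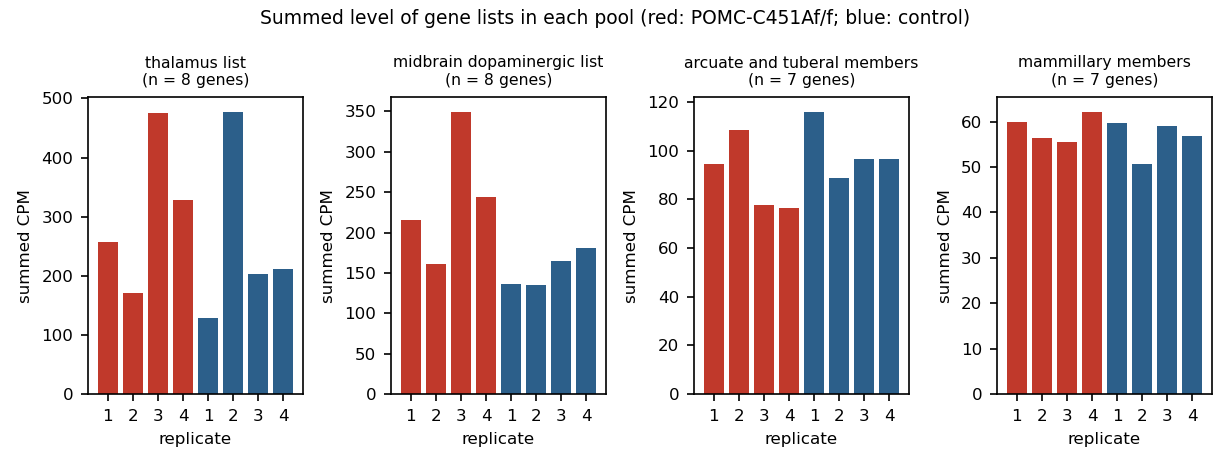
Summed level in CPM (bars, from 0) of the thalamus list, the midbrain dopaminergic list, the arcuate and tuberal factors and the mammillary and posterior factors in each pool of 2 mice, POMC-C451Af/f in red and control in blue. The thalamus list reached 475.5 CPM in POMC-C451Af/f replicate 3 and 477.8 CPM in control replicate 2, while the mammillary factors stayed between 50.6 and 62.2 CPM.

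Between the genotypes, 0 of the 41 factors were called by edgeR's quasi-likelihood test (two-sided, Benjamini-Hochberg adjusted p of at most 0.05 with an absolute log2 fold change over 0.5), where 4 of all 18637 genes, or 0.0215%, were. DESeq2 also called 0 of them, with 12 genes called in all. At an unadjusted p under 0.05, 4 factors were lower in POMC-C451Af/f, namely *Dlx1*, *Dlx2*, *Nr0b1* and *Nr5a2*, and 0 were higher, by edgeR and by DESeq2 alike. Over all genes tested the shares by edgeR were 2.39% lower and 2.70% higher. The 4 and 4 pools did not overlap for 2 factors, *Dlx1* and *Dlx2*, both lower in POMC-C451Af/f, against 1.45% of all genes lower and 1.34% higher. The log2 fold change was below 0 for 28 factors and above 0 for 13, with a median of -0.05, while 49.6% of all genes were below 0 and their median was 0.000854. In bulk RNA, fewer cells of a type and less RNA per cell cannot be told apart.

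These counts moved with single pools. Without POMC-C451Af/f replicate 2, in which the thalamic and midbrain lists were the lowest of that genotype, 13 factors had an unadjusted p under 0.05, 9 of them lower and 4 higher, and the share of all genes was then 9.38%. Groups without overlap numbered 7 without that replicate, 4 without POMC-C451Af/f replicate 1 and 4 without control replicate 2, with 8.62%, 5.53% and 6.53% of all genes, since fewer pools overlap less. The median was -0.000643 without POMC-C451Af/f replicate 3, -0.08 without replicate 2 or 4 of that genotype, -0.01 without control replicate 1 and -0.12 without control replicate 2. With the midbrain list as a covariate, 1 factor, *Dlx1*, had an unadjusted p under 0.05, as did 3.0% of all genes, and the median was -0.0034. With the thalamic list as a covariate, an alternative chosen after seeing the data, 5 factors and 4.04% of all genes had one. *Dlx1*, *Dlx2*, *Nr0b1* and *Nr5a2* were lower there and *Tcf7l2* was higher, and the median was 6.64e-05.

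**Figure D2:**
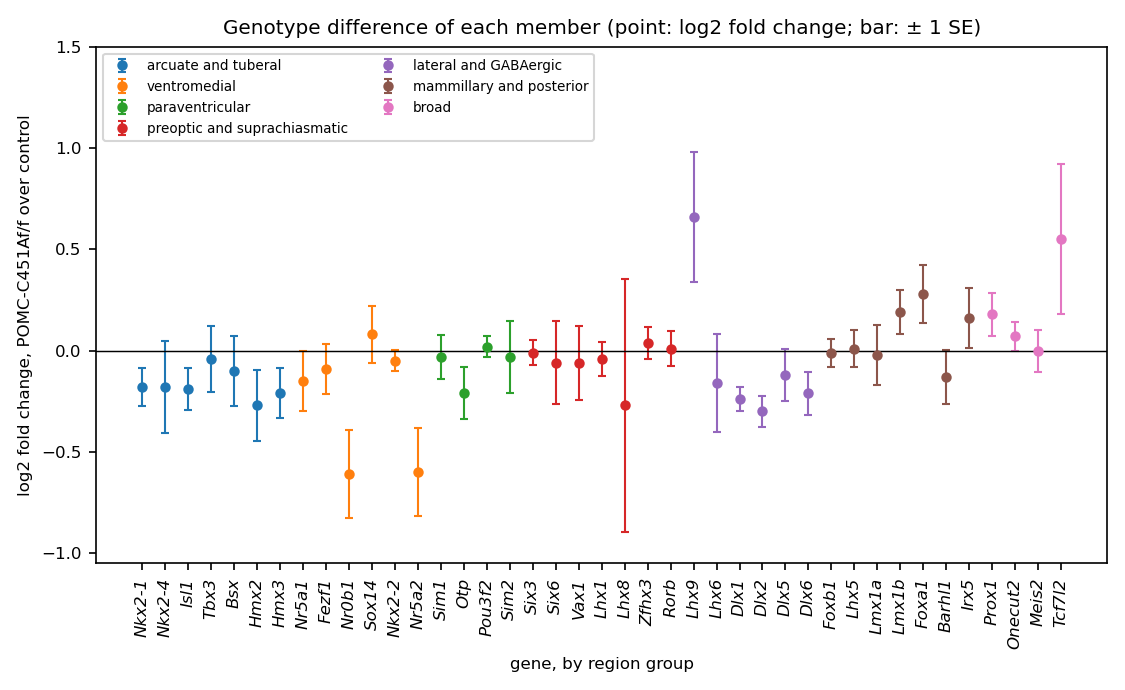
Log2 fold change of POMC-C451Af/f over control for each of the 41 factors (points, with 1 standard error of the fit on each side), coloured by region group. The 7 arcuate and tuberal factors lie below 0, between -0.27 and -0.04, the 4 broad factors lie at or above 0, and *Lhx8*, *Tcf7l2* and *Lhx9* have the longest bars.

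Levels of the factors were compared with each other only per kilobase of the longest annotated transcript, as the mean of the 8 pools. *Otp* was highest at 19.3 CPM per kb, followed by *Tcf7l2* at 14.3, *Nkx2-1* at 11.6, *Dlx1* at 11.4 and *Six3* at 10.9 CPM per kb. In the controls alone *Otp* was still highest, at 20.7 CPM per kb. There *Tcf7l2*, at 11.6 CPM per kb, lay below *Nkx2-1* and *Dlx1*, at 12.3 CPM per kb each. *Nr0b1* was lowest at 0.528 CPM per kb, with *Sim2* at 0.552 and *Onecut2* at 0.621 CPM per kb next to it. That order turned in the controls alone, where *Sim2* was at 0.557, *Onecut2* at 0.606 and *Nr0b1* at 0.64 CPM per kb. No factor was at 0 in any pool.

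The factors also differed in how much they varied from pool to pool. The biological coefficient of variation, the spread between pools of a genotype beyond counting noise, was above the trend for genes of like abundance for 20 of the 41 factors (48.8%), against 19.5% of all genes. It was more than 2 times the trend for 4 factors (9.76%), *Tcf7l2*, *Lhx8*, *Lhx9* and *Lhx6*, against 2.04% of all genes. *Nkx2-2*, a homeodomain factor of the ventral neural tube, was the steadiest relative to its trend (0.615 times), with 13.3 CPM in its lowest pool and 14.9 CPM in its highest. Low values gathered in a single pool. POMC-C451Af/f replicate 3 had the lowest value of 18 of the 41 factors, although it was the lowest pool for 16.3% of all genes tested. Control replicate 1 had the highest value of 15 factors, where it was the highest pool for 16.1% of all genes.

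**Figure D3:**
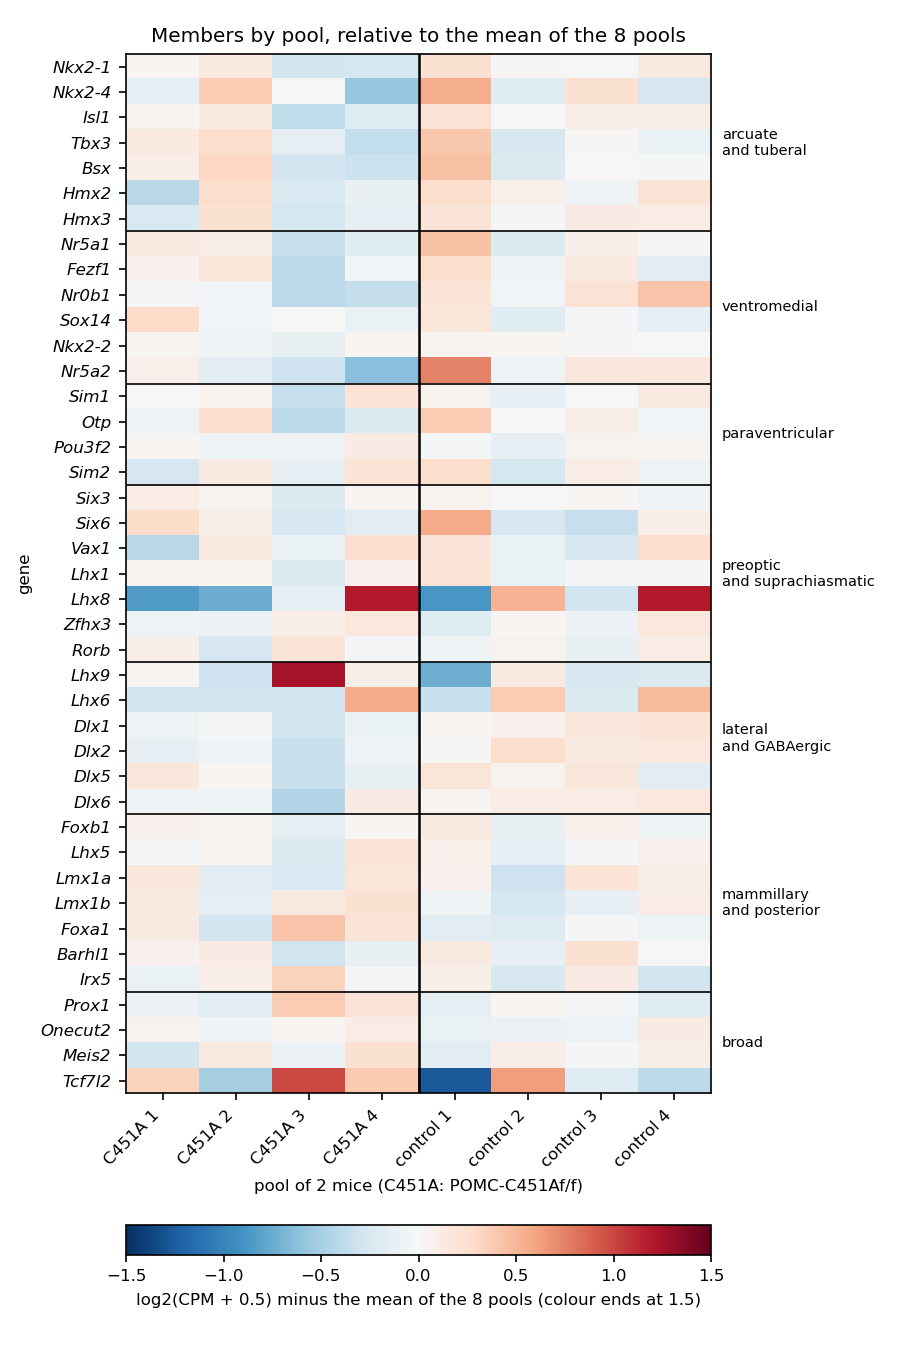
Each of the 41 factors (rows, by region group) in each pool of 2 mice (columns), as log2(CPM + 0.5) minus the mean of the 8 pools, with red above and blue below that mean. POMC-C451Af/f replicate 3 is below the mean for most rows, with a median of -0.22 over the factors, and *Lhx8*, *Lhx9* and *Tcf7l2* span the widest range of colour.

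The lowest p-values among the factors belonged to the linked pair *Dlx1* and *Dlx2*, homeodomain genes that specify GABAergic neurons of the forebrain, the hypothalamus included. *Dlx1* was counted at 44.3, 46.1, 38.1 and 43.3 CPM in the POMC-C451Af/f pools and at 48.1, 48.7, 52.5 and 53.7 CPM in the controls. Every POMC-C451Af/f pool lay under every control pool, the nearest being POMC-C451Af/f replicate 2 and control replicate 1. The means were 43.0 ± 3.42 and 50.8 ± 2.75 CPM (SD, n = 4 pools each). The fold change, in log2 units, came to -0.24 (standard error 0.0604; edgeR, Benjamini-Hochberg adjusted p = 0.878), so the difference did not pass the correction over all genes. Over the alternative settings, the log2 fold change of *Dlx1* was between -0.28 and -0.17 and its adjusted p between 0.187 and 1.0.

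*Dlx2* had 13.0, 13.5, 11.2 and 13.7 CPM in the POMC-C451Af/f pools and 14.4, 17.2, 15.7 and 15.9 CPM in the controls. Here too the groups did not overlap, and POMC-C451Af/f replicate 3 was the lowest pool for both genes. For *Dlx2* the log2 fold change was -0.30 (standard error 0.0771; edgeR, adjusted p = 0.878), between -0.34 and -0.20 over the alternatives, with adjusted p between 0.291 and 1.0. The midbrain list as a covariate gave log2 fold changes of -0.18 for *Dlx1* and -0.20 for *Dlx2*. Both genes lie on chromosome 2, transcribed toward each other with 9427 bp between their ends in the GENCODE M21 annotation. Neighbours of *Dlx1* showed no like separation: *Metap1d* had a log2 fold change of -0.08 and the antisense gene *Dlx1as* one of -0.23, each with overlapping groups.

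The second linked pair of the family, *Dlx5* and *Dlx6*, acts downstream of *Dlx1* and *Dlx2* in the same neurons. *Dlx6* ranged from 7.24 CPM in POMC-C451Af/f replicate 3 to 11.2 CPM in control replicate 4, with a log2 fold change of -0.21 (edgeR, adjusted p = 0.878). *Dlx5* ranged from 5.14 to 7.52 CPM, with a log2 fold change of -0.12 (edgeR, adjusted p = 0.907). For both genes the groups overlapped. Genes that GABAergic neurons share, *Gad1*, *Gad2* and *Slc32a1*, had log2 fold changes of -0.05, -0.05 and -0.06, all with overlapping groups.

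In the ventromedial group the factors with the largest fold changes were the nuclear receptors *Nr0b1* and *Nr5a2*. *Nr0b1* encodes DAX1, which binds and represses the ventromedial factor encoded by *Nr5a1*. It was counted at 0.914, 0.887, 0.59 and 0.612 CPM in the POMC-C451Af/f pools and at 1.14, 0.894, 1.17 and 1.43 CPM in the controls. POMC-C451Af/f replicates 3 and 4 were lowest, control replicate 4 was highest, and control replicate 2 lay between the POMC-C451Af/f values. A log2 fold change of -0.61 resulted (standard error 0.217; edgeR, adjusted p = 0.878). At its level the highest count in any pool was 57, which limits the precision of each value.

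*Nr5a2* encodes LRH-1, the nearest relative of the product of *Nr5a1*. Its values were 3.41, 2.79, 2.47 and 1.89 CPM in the POMC-C451Af/f pools and 5.71, 3.07, 3.66 and 3.65 CPM in the controls. Control replicate 1 lay far above the other 7 pools, and POMC-C451Af/f replicate 1 lay within the control range. On the log2 scale POMC-C451Af/f over control was -0.60 (standard error 0.219; edgeR, adjusted p = 0.878), and it was -0.39 without control replicate 1. *Nr5a2* had no unadjusted p under 0.05 without control replicate 1 or without POMC-C451Af/f replicate 4 (-0.47). *Nr0b1* had none without control replicate 4 (-0.5). Each gene had one in every other fit with 1 pool left out. Without POMC-C451Af/f replicates 3 and 4, the fold changes were -0.36 for *Nr0b1* and -0.37 for *Nr5a2*, and neither had an unadjusted p under 0.05. That was so under the midbrain covariate too, with fold changes of -0.55 and -0.44, whereas under the thalamic covariate both had one, with -0.51 and -0.42.

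**Figure D4:**
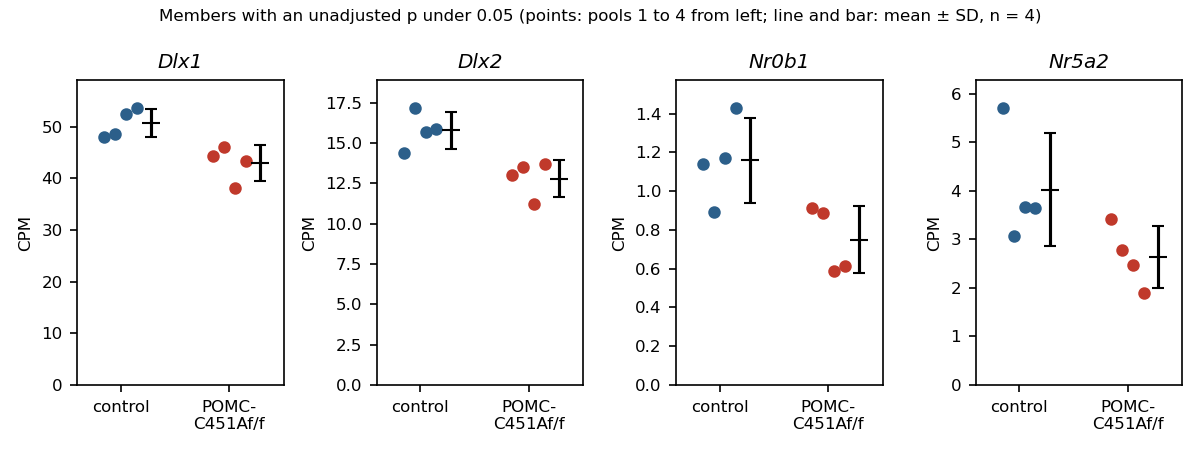
CPM (from 0) of the 4 factors with an unadjusted p under 0.05 in each pool, replicates 1 to 4 from left to right, control in blue and POMC-C451Af/f in red, with the mean and SD (n = 4) beside them. The groups do not overlap for *Dlx1* and *Dlx2*, while control replicate 2 lies among the POMC-C451Af/f pools for *Nr0b1* and POMC-C451Af/f replicate 1 among the controls for *Nr5a2*.

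Sequences upstream of the start are shown for 3 of these 4 genes, to let the genes with the lowest p-values be compared at their promoters. RefSeq promoters on GRCm38.p6 matched 32 of the 41 factors, with 40 promoters between them, and each was searched over the 250 bases before the start, on both strands. The 5 motifs searched were chosen after the values, and in part the sequences, had been seen. They were AGGTCA, which reads TGACCT on the other strand and is the core that many nuclear receptors bind, the longer CAAGGTCA that contains it, the E-box CACGTG and the homeodomain core TAATTA, which read the same on both strands, and the shorter TAATT contained in that core. Of 32851 promoters in all, 14.0% held AGGTCA, 1.33% CAAGGTCA, 6.02% CACGTG, 4.84% TAATTA and 25.0% TAATT. Among the 40 promoters of the factors, 4 held AGGTCA (those of *Barhl1*, *Dlx1*, *Nr0b1* and *Nr5a2*), 0 CAAGGTCA, 2 CACGTG (*Dlx2* and *Nkx2-2*), 0 TAATTA and 13 TAATT. The promoter of *Dlx1* lies in an annotated exon and is not shown. The sequences are those at chr1:136960449-136960698 on the minus strand for *Nr5a2*, which has another start without the core, at chrX:86191525-86191763 on the plus strand for *Nr0b1*, and at chr2:71546755-71547004 on the minus strand for *Dlx2*. Each is upstream of the annotated gene, outside exons. Capitals mark AGGTCA, whose leftmost base is at -64 in *Nr5a2* and at -126 in *Nr0b1*, and CACGTG, which begins at -142 and at -42 in *Dlx2*. Positions count back from the RefSeq start, and the 239 bases of *Nr0b1* end where the GENCODE exon begins, short of that start. A match describes the letters of the window only.
Nr5a2: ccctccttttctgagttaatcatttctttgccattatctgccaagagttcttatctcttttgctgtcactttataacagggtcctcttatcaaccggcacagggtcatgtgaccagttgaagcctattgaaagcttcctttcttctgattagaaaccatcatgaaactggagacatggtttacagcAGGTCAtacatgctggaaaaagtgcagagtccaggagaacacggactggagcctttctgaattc
Nr0b1: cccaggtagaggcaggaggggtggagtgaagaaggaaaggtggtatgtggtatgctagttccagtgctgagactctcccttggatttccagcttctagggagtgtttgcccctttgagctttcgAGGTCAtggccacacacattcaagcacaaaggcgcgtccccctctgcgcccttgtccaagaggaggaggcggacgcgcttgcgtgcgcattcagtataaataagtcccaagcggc
Dlx2: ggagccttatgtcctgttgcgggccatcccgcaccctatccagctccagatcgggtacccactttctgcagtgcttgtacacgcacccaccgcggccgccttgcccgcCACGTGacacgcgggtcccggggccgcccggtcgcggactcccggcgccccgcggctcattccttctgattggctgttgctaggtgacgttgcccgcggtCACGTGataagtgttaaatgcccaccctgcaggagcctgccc

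Other ventromedial factors stayed nearer to the controls. *Nr5a1*, the receptor gene that ventromedial neurons need to form their nucleus, had 12.6, 12.2, 8.99 and 10.01 CPM in the POMC-C451Af/f pools and 15.6, 9.86, 12.1 and 11.2 CPM in the controls. *Fezf1*, a zinc finger gene of the same neurons and the highest of the group per kilobase (7.69 CPM per kb), had 19.2, 20.8, 13.9 and 17.8 CPM against 22.2, 17.6, 20.2 and 16.4 CPM. For both genes POMC-C451Af/f replicate 3 was lowest, control replicate 1 was highest, and the groups overlapped. The log2 fold changes were -0.15 for *Nr5a1* and -0.09 for *Fezf1*, and with the midbrain list as a covariate they were 0.05 and 0.17. With 1 pool left out, that of *Nr5a1* lay between -0.24, without control replicate 2, and -0.01, without control replicate 1. *Sox14*, a repressor of the Sox family, had a log2 fold change of 0.08 and *Nkx2-2* one of -0.05. Over the 6 ventromedial factors the median was -0.12, with 5 below 0 and 1 above.

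The arcuate and tuberal group holds the factors of the region in which POMC neurons lie. All 7 had a log2 fold change below 0, from -0.27 to -0.04 with a median of -0.18, and 0 of the 7 had an unadjusted p under 0.05 by edgeR. Without POMC-C451Af/f replicate 2, 4 of them had one (*Nkx2-1*, *Isl1*, *Hmx2* and *Hmx3*), where 9.38% of all genes did, and without the filter *Nkx2-1* and *Isl1* had one, where 4.68% of all genes did. *Nkx2-1*, which the ventral hypothalamus needs to form, was the highest of the group at 11.6 CPM per kb. It had 33.0, 35.7, 26.6 and 26.8 CPM in the POMC-C451Af/f pools and 37.9, 32.6, 32.2 and 35.5 CPM in the controls. POMC-C451Af/f replicates 3 and 4 lay under all other pools, while replicates 1 and 2 lay within the control range. In log2 terms the fold change was -0.18 (standard error 0.0953; edgeR, adjusted p = 0.878), and -0.01 either without those low replicates or under the midbrain covariate.

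*Isl1*, a LIM homeodomain gene that arcuate neurons need to express *Pomc*, followed the same pools, with 21.2, 22.9, 15.7 and 18.0 CPM in POMC-C451Af/f and 24.1, 20.6, 22.2 and 22.2 CPM in the controls. Its log2 fold change was -0.19 (standard error 0.102; edgeR, adjusted p = 0.878), -0.01 without POMC-C451Af/f replicates 3 and 4, and 0.00151 with the midbrain list as a covariate. *Bsx*, a homeodomain gene of *Agrp* and *Npy* neurons, had 12.1, 14.1, 9.18 and 8.90 CPM in POMC-C451Af/f and 15.5, 9.65, 11.3 and 11.0 CPM in the controls. POMC-C451Af/f replicates 3 and 4 were again lowest and the groups overlapped, with a log2 fold change of -0.10 that was 0.17 under the midbrain covariate.

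*Hmx2* and *Hmx3*, neighbours on chromosome 7 that neurons making growth hormone-releasing hormone need, lie 3848 bp apart. *Hmx2* had 1.80, 3.20, 2.13 and 2.36 CPM in POMC-C451Af/f and 3.20, 2.75, 2.45 and 3.07 CPM in the controls. *Hmx3* had 4.77, 6.74, 4.63 and 5.06 CPM in POMC-C451Af/f and 6.57, 5.59, 6.20 and 6.17 CPM in the controls. For each gene POMC-C451Af/f replicate 2 stood at the top of its group, above most controls, and the other 3 POMC-C451Af/f pools lay under all controls. The log2 fold changes were -0.27 and -0.21, and with 1 pool left out they lay between -0.45 and -0.16 for *Hmx2* and between -0.35 and -0.15 for *Hmx3*, the lowest of each without POMC-C451Af/f replicate 2. Under the midbrain covariate they were -0.08 and -0.03. *Tbx3*, a T-box gene of arcuate neurons, had a log2 fold change of -0.04 and a range from 10.7 to 18.7 CPM, and *Nkx2-4*, a relative of *Nkx2-1*, one of -0.18 and a range from 4.37 to 10.02 CPM.

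Summed over the 7 arcuate and tuberal factors, the level was 94.5, 108.4, 77.7 and 76.2 CPM in POMC-C451Af/f and 116.0, 88.8, 96.5 and 96.6 CPM in the controls. The low sums were those of POMC-C451Af/f replicates 3 and 4, the pools with the highest midbrain sums. *Pomc* itself had 49.5, 50.2, 35.8 and 30.6 CPM in POMC-C451Af/f and 98.9, 49.7, 50.5 and 50.8 CPM in the controls. The same replicates were lowest, control replicate 1 was highest, and the groups overlapped. That control pool also held the most pituitary transcripts: a list of 8 pituitary genes summed to 1455.1 CPM there, to 226.4, 35.3, 19.2 and 191.4 CPM in POMC-C451Af/f and to 98.0, 24.2 and 35.1 CPM in control replicates 2 to 4, with *Prl* the most abundant gene and *Lhb* at 0 in 1 pool. Of its 6 genes tested, 0 had an unadjusted p under 0.05, and the median log2 fold change was -0.60. *Pomc* is also made by pituitary cells, and the part of pituitary tissue in its level was not tested.

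Of the paraventricular factors, 3 of 4 were below 0 and the median was -0.03. *Otp*, which neuroendocrine neurons of the paraventricular and supraoptic nuclei need, had 47.9, 60.0, 38.4 and 43.6 CPM in POMC-C451Af/f and 65.9, 50.6, 54.1 and 49.0 CPM in the controls. POMC-C451Af/f replicate 3 was lowest and control replicate 1 highest, with overlap between the groups. The fold change, in log2 units, came to -0.21 (standard error 0.13; edgeR, adjusted p = 0.878), and 0.08 under the midbrain covariate. With 1 pool left out it lay between -0.34, without POMC-C451Af/f replicate 2, and -0.11, without control replicate 1. *Sim1*, the bHLH-PAS gene that acts in parallel with *Otp*, and its relative *Sim2* each had a log2 fold change of -0.03. *Pou3f2*, a POU gene that acts after *Sim1* and *Otp*, had one of 0.02, with all pools between 25.6 and 30.3 CPM.

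The preoptic and suprachiasmatic factors had a median of -0.04, with 5 of 7 below 0. *Six3*, which sets the anterior hypothalamic territory and was the highest of the group at 10.9 CPM per kb, had 43.3, 41.7, 34.8 and 41.0 CPM in POMC-C451Af/f and 41.8, 40.1, 40.9 and 38.7 CPM in the controls. All pools but POMC-C451Af/f replicate 3 lay close together, and the log2 fold change was -0.01, or 0.06 without that replicate. *Lhx1*, a LIM homeodomain gene that suprachiasmatic neurons need for their coupling, had 16.0, 15.7, 13.2 and 16.2 CPM in POMC-C451Af/f and 17.8, 14.4, 15.3 and 15.2 CPM in the controls. The same replicate was the lowest of all, and the log2 fold change was -0.04, or 0.03 without it.

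*Zfhx3*, a large homeobox gene of the suprachiasmatic clock, ranged from 46.8 to 59.5 CPM, which over its long transcript came to 3.11 CPM per kb. Its log2 fold change was 0.04, and that of *Rorb*, a nuclear receptor gene that acts in the clock, was 0.01. *Six6* and *Vax1*, homeodomain genes that the suprachiasmatic nucleus needs to form, had log2 fold changes of -0.06 each, with ranges from 5.69 to 11.1 CPM and from 2.42 to 4.16 CPM. *Lhx8* differed from the rest of this group. A LIM homeodomain gene of cholinergic neurons of the basal forebrain, it had 0.815, 0.913, 1.66 and 4.90 CPM in POMC-C451Af/f and 0.794, 2.89, 1.43 and 4.90 CPM in the controls. Replicate 4 of each genotype was highest and the groups covered nearly the same range, for -0.27 in log2 fold change (standard error 0.626) with a variation 3.41 times the trend, a ratio that 0.649% of all genes exceeded. Without POMC-C451Af/f replicates 3 and 4, *Lhx8* was lower with an unadjusted p under 0.05, which 3.04% of all genes then had.

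*Lhx6*, a LIM homeodomain gene of GABAergic neurons of the basal forebrain and zona incerta, stood high in pools where *Lhx8* did. It had 8.17, 8.27, 8.17 and 15.1 CPM in POMC-C451Af/f and 7.91, 13.3, 8.69 and 14.3 CPM in the controls. POMC-C451Af/f replicate 4 and control replicates 2 and 4 were high, and the log2 fold change was -0.16 (standard error 0.243). With 1 pool left out it lay between -0.43, without POMC-C451Af/f replicate 4, and -0.01, without control replicate 4. Chosen after its values were seen, the basal forebrain gene *Gbx1* had 0.543, 0.672, 1.07 and 2.67 CPM in POMC-C451Af/f and 0.794, 0.665, 0.675 and 2.28 CPM in the controls, and was highest in replicate 4 of each genotype. A list of 8 cortical and hippocampal genes summed to 36.2, 26.9, 73.4 and 45.1 CPM in POMC-C451Af/f and to 29.5, 67.7, 28.2 and 30.0 CPM in the controls. The most abundant gene of that list was *Slc17a7*, *Emx1* was at 0 in 1 pool, and of 7 genes tested 0 had an unadjusted p under 0.05 and the median on the log2 scale was 0.08. The part of forebrain tissue in the levels of *Lhx8* and *Lhx6* was not tested.

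*Lhx9*, a LIM homeodomain gene of hypocretin neurons that is also expressed in the thalamus, had the highest fold change of the 41 factors. Its values were 8.0, 6.15, 19.0 and 8.26 CPM in POMC-C451Af/f and 4.47, 8.53, 6.48 and 6.57 CPM in the controls. POMC-C451Af/f replicate 3 alone stood far above, and without it the remaining pools of both genotypes overlapped. A log2 fold change of 0.66 resulted (standard error 0.322; edgeR, adjusted p = 0.878), 0.20 without POMC-C451Af/f replicate 3, 0.31 with the thalamic list as a covariate and -0.09 with the midbrain list. Over the 6 lateral and GABAergic factors the median was -0.18, with 5 below 0.

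Of the mammillary and posterior factors, 4 of 7 were above 0 with a median of 0.01, and 0 of the 7 varied more than their trend. *Foxb1*, a forkhead gene that the mammillary body needs and the highest of the group at 6.36 CPM per kb, had 19.9, 19.3, 17.0 and 19.3 CPM in POMC-C451Af/f and 20.8, 17.5, 19.9 and 18.0 CPM in the controls. Values of both groups were interleaved, and the log2 fold change was -0.01. *Barhl1*, a homeodomain gene of mammillary and subthalamic neurons, had 3.90, 4.08, 2.92 and 3.42 CPM against 4.12, 3.37, 4.44 and 3.71 CPM, with a log2 fold change of -0.13. *Lhx5*, another LIM homeodomain gene of the mammillary region, had one of 0.01, and *Irx5*, an Iroquois gene, one of 0.16.

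*Lmx1a*, *Lmx1b* and *Foxa1* are shared between neurons of the posterior hypothalamus and the dopaminergic neurons of the midbrain. *Lmx1a* had 5.28, 4.11, 3.90 and 5.31 CPM in POMC-C451Af/f and 4.86, 3.64, 5.44 and 4.95 CPM in the controls, interleaved, with a log2 fold change of -0.02. *Lmx1b* had 8.69, 7.07, 8.68 and 9.32 CPM against 7.47, 6.46, 7.16 and 8.50 CPM. POMC-C451Af/f replicate 2 was low in its group and control replicate 4 high in the other, and the log2 fold change of *Lmx1b* was 0.19 (standard error 0.109; edgeR, adjusted p = 0.878). *Foxa1* had 5.58, 4.06, 6.96 and 5.81 CPM against 4.42, 4.35, 4.93 and 4.74 CPM. Of the POMC-C451Af/f pools, 3 lay above every control and replicate 2 lay under them all, for a log2 fold change of 0.28 (standard error 0.145; edgeR, adjusted p = 0.878). With the midbrain list as a covariate the fold changes were -0.0034 for *Lmx1b* and -0.08 for *Foxa1*.

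*Slc6a3* of the midbrain list, the dopamine transporter gene, had 36.4, 12.3, 90.0 and 53.8 CPM in POMC-C451Af/f and 6.90, 4.24, 15.8 and 26.4 CPM in the controls, highest like *Foxa1* in POMC-C451Af/f replicate 3 but lowest in control replicate 2, with overlapping groups and a log2 fold change of 1.86 (edgeR, adjusted p = 0.878). The lowest p-values of the list by edgeR were those of *Nr4a2*, *Aldh1a1* and *En1*, each with an adjusted p of 0.878. *Th*, the gene of tyrosine hydroxylase, which arcuate dopaminergic neurons also express, had 60.3, 55.4, 90.8 and 73.1 CPM against 47.0, 42.0, 50.9 and 51.1 CPM, without overlap and with a log2 fold change of 0.55 (edgeR, adjusted p = 0.878). The paper, which tested with DESeq2, lists *Th* among its differentially expressed genes, as higher in POMC-C451Af/f. The part of midbrain tissue in the levels of *Foxa1* and *Lmx1b* was not tested. The midbrain covariate, itself tending higher in POMC-C451Af/f, cannot separate it from genotype.

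The 4 broad factors had log2 fold changes at or above 0, with a median of 0.12. *Tcf7l2*, the Wnt effector gene that thalamic neurons keep at a high level, had 60.3, 33.7, 95.7 and 62.7 CPM in POMC-C451Af/f and 19.7, 74.3, 41.9 and 36.3 CPM in the controls. POMC-C451Af/f replicate 3 and control replicate 2 were highest, control replicate 1 was lowest, and the groups overlapped over most of their range. On the log2 scale POMC-C451Af/f over control was 0.55 (standard error 0.37, edgeR, adjusted p = 0.878), and between 0.05 and 0.95 over the alternatives. *Tcf7l2* was higher with an unadjusted p under 0.05 under the thalamic covariate and without control replicate 2, where 4.04% and 6.29% of all genes had one. Its variation was 5.18 times the trend, a ratio that 0.327% of all genes exceeded. *Prox1*, a homeodomain gene of many brain regions, ranged from 26.4 to 39.0 CPM with a log2 fold change of 0.18, and was highest in POMC-C451Af/f replicates 3 and 4. *Meis2* and *Onecut2*, homeodomain genes of many neurons, had log2 fold changes of 0.00 and 0.07. For *Onecut2* the values were 10.4, 9.64, 10.3 and 10.9 CPM in POMC-C451Af/f and 9.38, 9.44, 9.55 and 11.0 CPM in the controls, of which replicate 4 stood apart.

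Whether factors moved together from pool to pool was asked for 20 pairs over the 8 pools, on the scale of log2(CPM + 0.5). Each pair held 2 factors, or a factor and a gene of the effector, thalamus or midbrain lists. The pairs were set by the known roles of the genes, but with earlier results of these data known. Their p-values are therefore descriptive. By Pearson's r, 10 of the 20 pairs passed an adjusted p of 0.05 (two-sided exact permutation test over all pairings, Benjamini-Hochberg over the 20), and by Spearman's rho 11 did. The median r of the 20 was 0.6. No share for other pairs of genes stands beside these counts. POMC-C451Af/f replicate 3 was the lowest pool of 18 factors and control replicate 1 the highest of 15, and such shared shifts also enter r. Without POMC-C451Af/f replicate 3, 5 pairs passed, and 7 did when deviations from the mean of each genotype were used. The strongest relation was that of *Tcf7l2* with the thalamic gene *Prkcd*, which had 54.1, 30.3, 146.7 and 89.1 CPM in POMC-C451Af/f and 16.5, 168.9, 42.3 and 37.8 CPM in the controls. Their r was 0.96 (exact permutation p = 0.000198, adjusted p = 0.00397) and rho 0.98 (exact permutation p = 0.000397, adjusted p = 0.00397), and without the 2 pools farthest from the median of *Tcf7l2* r was 0.92 (exact permutation p = 0.00278).

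Within the arcuate group, *Bsx* and *Agrp* had an r of 0.88 (exact permutation p = 0.00233, adjusted p = 0.0151) and a rho of 0.98 (exact permutation p = 0.000397, adjusted p = 0.00397), and r was 0.81 (exact permutation p = 0.0125) without the 2 farthest pools. *Hmx2* and *Hmx3* had an r of 0.89 (exact permutation p = 0.00471, adjusted p = 0.0183) and a rho of 0.88 (exact permutation p = 0.00724, adjusted p = 0.0207), with 0.85 (exact permutation p = 0.0389) without such pools. *Isl1* and *Pomc* had an r of 0.79 (exact permutation p = 0.0241, adjusted p = 0.0483) and a rho of 0.88 (exact permutation p = 0.00724, adjusted p = 0.0207), with 0.75 (exact permutation p = 0.0181). These 3 relations and that of *Tcf7l2* with *Prkcd* had an unadjusted p under 0.05 without the farthest pools too. On deviations from the genotype means, r was 0.97 for *Tcf7l2* with *Prkcd*, 0.88 for *Bsx* with *Agrp* and 0.84 for *Hmx2* with *Hmx3*. It was 0.69 for *Isl1* with *Pomc*, both of which were lower in POMC-C451Af/f.

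In the other 6 pairs the unadjusted p was above 0.05 without the 2 farthest pools, of which POMC-C451Af/f replicate 3 was always one, although for 3 of them the absolute r over the remaining 6 pools was near that of *Isl1* with *Pomc*. *Dlx1* and *Dlx2* had an r of 0.88 (exact permutation p = 0.00548, adjusted p = 0.0183) and a rho of 0.86 (exact permutation p = 0.0107, adjusted p = 0.0238), with 0.73 (exact permutation p = 0.0944) without them. Both genes were lower in POMC-C451Af/f, and on deviations from the genotype means their r was 0.64. For *Foxa1* and *Slc6a3* r was 0.89 (exact permutation p = 0.00303, adjusted p = 0.0151) and rho 0.90 (exact permutation p = 0.00456, adjusted p = 0.0183), with 0.73 (exact permutation p = 0.0958). *Lhx9* and *Hcrt*, the hypocretin gene, ran in opposite directions, with an r of -0.90 (exact permutation p = 0.00112, adjusted p = 0.0112) and a rho of -0.93 (exact permutation p = 0.00223, adjusted p = 0.0112), and -0.74 (exact permutation p = 0.118) without those pools. *Hcrt* had 140.2, 149.1, 100.9 and 120.9 CPM in POMC-C451Af/f and 183.0, 124.3, 166.8 and 133.7 CPM in the controls, so that its lowest pool was the highest of *Lhx9*.

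*Nr5a1* and *Fezf1* had an r of 0.86 (exact permutation p = 0.0067, adjusted p = 0.0191) and a rho of 0.86 (exact permutation p = 0.0107, adjusted p = 0.0238), with 0.67 (exact permutation p = 0.16) without the 2 farthest pools. *Foxb1* and *Barhl1* had an r of 0.82 (exact permutation p = 0.0125, adjusted p = 0.0312) and a rho of 0.93 (exact permutation p = 0.00223, adjusted p = 0.0112), with 0.52 (exact permutation p = 0.272). *Otp* and *Trh*, the thyrotropin-releasing hormone gene, had an r of 0.78 (exact permutation p = 0.0226, adjusted p = 0.0483) and a rho of 0.81 (exact permutation p = 0.0218, adjusted p = 0.0396), with 0.27 (exact permutation p = 0.596). Of the 10 pairs, the relation of *Otp* with *Trh* was the weakest without these pools. Leaving out the farthest pools narrows the range of values, and with any 1 pool left out its r lay between 0.57 and 0.85.

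**Figure D5:**
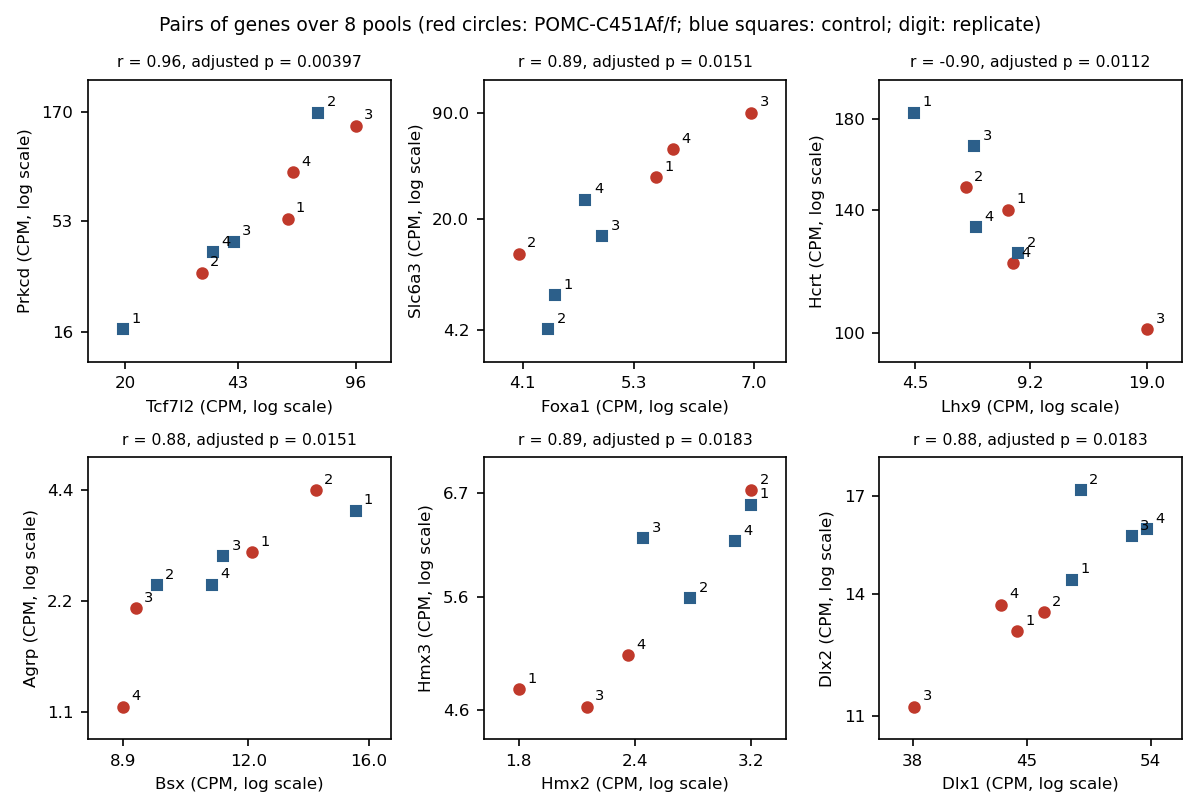
CPM of 6 pairs of genes over the 8 pools of 2 mice, both axes on a log scale, with POMC-C451Af/f as red circles and control as blue squares, numbered by replicate. *Tcf7l2* and *Prkcd* lie along a line (r = 0.96 on the scale of log2(CPM + 0.5)), and POMC-C451Af/f replicate 3 is the extreme pool for *Foxa1*, *Lhx9* and *Dlx1*.

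Of the 10 pairs that did not pass by r, *Isl1* and *Tbx3* came nearest, with an r of 0.68 (exact permutation p = 0.0594, adjusted p = 0.108) and a rho of 0.83 (exact permutation p = 0.0154, adjusted p = 0.0308), the only pair that passed by rho alone. Its r was 0.81 (exact permutation p = 0.0514) without the 2 farthest pools. In several pairs the sign of r turned when these pools were left out: *Lhx1* with *Vip* went from 0.51 to -0.20, *Dlx5* with *Dlx6* from 0.50 to -0.31, *Sim1* with *Oxt* from 0.48 to -0.09, and *Nkx2-2* with *Nkx2-4*, factors of different groups, from -0.19 to 0.16. *Lmx1a* with *Foxa1* went the other way, from 0.12 to 0.82 (exact permutation p = 0.0306) without POMC-C451Af/f replicate 3 and control replicate 2. The remaining pairs were *Six3* with *Six6* (0.48, then 0.71), *Sim1* with *Otp* (0.41, then 0.17), *Lmx1a* with *Slc6a3* (0.27, then 0.51) and *Hmx2* with *Ghrh* (0.11, then 0.24). *Dlx5* and *Dlx6*, linked like *Dlx1* and *Dlx2* with 9237 bp between them, had a rho of -0.07 (exact permutation p = 0.882, adjusted p = 0.928).

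The regional effector genes were set beside their factors. Of 23 effector genes tested, 1 was higher and 4 lower in POMC-C451Af/f at an unadjusted p under 0.05, where 2.70% and 2.39% of all genes were. By edgeR 0 were called, and the median log2 fold change was -0.14. *Trh* and *Tac2*, the neurokinin B gene, were without overlap and lower, as were 1.45% of all genes. Their log2 fold changes were -0.23 and -0.20 (edgeR, adjusted p = 0.878 for both). *Pomc* was the next by p, at -0.59 (edgeR, adjusted p = 0.878), ahead of *Gal*, the galanin gene, at -0.14 and *Slc17a6*, a vesicular glutamate transporter gene, at 0.14. In control replicate 1, the pool with the most pituitary transcripts, *Pomc* was at 98.9 CPM, against 49.7 to 50.8 CPM in the other controls. Summed over the 24 genes, the level was 2753.5, 2962.6, 2384.7 and 2781.3 CPM in POMC-C451Af/f and 3247.3, 2764.9, 3050.6 and 2817.0 CPM in the controls, and again POMC-C451Af/f replicate 3 was lowest and control replicate 1 highest.

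Partners of the factors, the cofactors and corepressors through which LIM, PAS and TALE factors act, had a median variation of 0.769 times the trend. That median was 0.999 for the 41 factors and 0.781 for all genes, and the difference was not tested. Of the 18 partners, 0 had an unadjusted p under 0.05 by edgeR, where 950 of all 18637 genes did. The median log2 fold change of the partners was -0.01. *Ctnnb1*, the partner of *Tcf7l2*, was the most abundant with a log2 fold change of 0.02. A further list of 27 transcription factors of the hypothalamus had 1 gene higher at an unadjusted p under 0.05, *Foxp2* with a log2 fold change of 0.26 (edgeR, adjusted p = 0.878), 0 lower and a median of 0.02. The gene of this list with the highest CPM, transcript length left aside, was *Zic1*, with 70.6, 52.8, 103.4 and 82.2 CPM in POMC-C451Af/f and 44.4, 80.7, 59.4 and 71.5 CPM in the controls. Like *Tcf7l2*, it was highest in POMC-C451Af/f replicate 3 and lowest in control replicate 1, and like it *Zic1* is expressed in the thalamus.

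Of the 41 factors, 16 overlap in GENCODE M21 another gene that the count table also holds, most often an antisense transcript. The library kit keeps the strand, but the strand setting of the quantification is not given in the sources used here, so reads of an overlapping gene cannot be told apart with certainty. *Six3os1*, the divergent transcript at *Six3*, had a log2 fold change of -0.08 beside -0.01 for *Six3*, and *Dlx6os1*, which overlaps *Dlx6*, one of -0.15. *Sfta3-ps*, next to *Nkx2-1*, had one of -0.17, near the -0.18 of its neighbour. The gene model of *Fgfr2* spans *Hmx2* and *Hmx3* on the other strand, and it had a log2 fold change of 0.24 without overlap (edgeR, adjusted p = 0.878), opposite in sign to both factors.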

How the data were processed

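Poly(A) RNA of 8 hypothalamic pools of 2 animals was sequenced. The authors quantified reads with Salmon 1.10 after FastQC 0.12.1, summed transcripts to genes with tximport, and deposited an estimated count per gene, not normalized between pools. The authors' own table of the comparison (DESeq2 1.40 in R 4.4: mean count, fold change and p-values) was not used.

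Counts were rounded, filtered with filterByExpr (minimum count 10, minimum total 15), normalized with TMM and tested with edgeR 4.0.16 (quasi-likelihood, genotype as the only term, two-sided) in R 4.3.3, with Benjamini-Hochberg adjustment over 18637 genes. The standard error is the absolute log2 fold change over the root of F. The tables were made with Python 3.11.15, numpy 2.4.6, pandas 2.3.3 and scipy 1.17.1. Correlations used log2(CPM + 0.5). Steps were tested on simulated data. Any 2 pools differed beyond counting noise (chi-square over its degrees of freedom at least 6.4), as separate libraries do. A count of 0 allows 3 counts, and this floor covers counting error only.

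Levels per kilobase used the longest GENCODE M21 transcript (GRCm38) of the same Ensembl identifier; the authors' build was GRCm39, and no coordinate was converted. Of the identifiers, 51424 had a symbol, and 32219 genes had a count in any pool.

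The factors, gene lists and 20 pairs were chosen with earlier results of these data known. Values by pool are given for 23 factors: those with an unadjusted p under 0.05 or groups without overlap, the highest per kilobase in each region group, *Foxa1*, *Lmx1a* and *Lmx1b*, those in a pair past an adjusted p of 0.05, and those with a pool far from the other 3 of its group. Of each list of other genes, the most abundant gene (by CPM, without length), up to 3 genes by p and markers at 0 are named, along with *Esr1*, *Pomc*, *Slc6a3*, *Th*, *Prl* and *Ttr*. Lists covered other hypothalamic factors, partners, effector genes, midbrain, thalamus, cortex and hippocampus, striatum, pituitary, choroid plexus and hindbrain. Genes outside this rule, *Lhx8*, *Gbx1*, *Oxt*, *Avp*, *Npy*, *Cartpt*, *Hdc*, *Gad1*, *Gad2*, *Slc32a1* and the neighbours of the factors among them, were named after their values were seen, as were *Efr3b*, *Myo7a*, *Actb* and *Gapdh* as reference genes.

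Alternatives were DESeq2 1.42.0, its size factors, a filter of 10 counts in each pool, no filter, unrounded counts, the replicate number as a block, adjusted p alone, the midbrain list as a covariate, POMC-C451Af/f replicates 3 and 4 left out together, each pool left out in turn and, for pairs, a pseudocount of 1, Spearman's rho and deviations from the genotype means. The thalamus list as a covariate and the 5 motifs were chosen after seeing the data.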

Additional observations from a re-analysis of the deposited data

Results flagged for a closer look

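In 7 of 102 groups of 4 pools, 1 pool lay far from the other 3, relative to the range of the group; about 1 group in 20 does so by chance. Among the factors this held for 4 of 82 groups. *Lhx1* was lowest in POMC-C451Af/f replicate 3, at 13.2 CPM, where the other 3 pools had 15.7 to 16.2 CPM. *Lhx9* was highest in the same pool, at 19.0 CPM, where the others had 6.15 to 8.26 CPM. *Lhx6* was highest in POMC-C451Af/f replicate 4, at 15.1 CPM against 8.17 to 8.27 CPM. *Onecut2* was highest in control replicate 4, at 11.0 CPM against 9.38 to 9.55 CPM. The summed pituitary list was highest in control replicate 1, at 1455.1 CPM against 24.2 to 98.0 CPM. The summed choroid plexus list was highest of the controls in the same pool, at 39.8 CPM against 32.9 to 34.0 CPM. POMC-C451Af/f replicate 3 had the same sum. *Ttr* of that list had 2.65 CPM in control replicate 1 and 7.47 CPM in POMC-C451Af/f replicate 3. The summed cortex and hippocampus list was highest in control replicate 2, at 67.7 CPM against 28.2 to 30.0 CPM. Its most abundant gene, *Slc17a7*, had 47.3 CPM in that pool, while the median deviation over the list was -0.03 there.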

How the results depend on the processing

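Under all alternatives run, 0 of the 41 factors were called. The count with an unadjusted p under 0.05, 4 by edgeR, was 8 without the filter, 1 with the midbrain covariate and between 3 and 13 with 1 pool left out, where the shares of all genes were 4.68%, 3.0% and between 3.37% and 9.38%; groups without overlap, 2, were between 2 and 7. With the replicate block, 5 factors had an unadjusted p under 0.05 and the median stayed at -0.05, although the numbers do not pair the pools, since the correlations of deviations within a number lay between -0.179 and 0.243. Overlap could not be recomputed for the block and the covariates, which change the fit and not the values. The median was between -0.12 and -0.000643 with 1 pool left out, and the number of pairs past an adjusted p of 0.05, 10, was between 5 and 9.

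Of 391 fold changes of the 23 factors given by pool, 353 kept their direction and 38 turned, each of them uncalled throughout. With the midbrain covariate they were 0.00151 for *Isl1*, 0.17 for *Bsx*, 0.05 for *Nr5a1*, 0.17 for *Fezf1*, 0.08 for *Otp*, 0.11 for *Six3*, 0.07 for *Lhx1*, -0.09 for *Lhx9*, 0.06 for *Foxb1*, -0.0034 for *Lmx1b*, -0.08 for *Foxa1*, 0.03 for *Barhl1* and -0.02 for *Onecut2*. With the thalamus covariate, chosen after seeing the data, they were 0.06 for *Bsx*, 0.01 for *Fezf1*, 0.02 for *Six3*, 0.03 for *Lhx1*, 0.04 for *Foxb1* and 0.05 for *Lmx1a*. Without POMC-C451Af/f replicates 3 and 4 they were 0.14 for *Bsx*, 0.03 for *Nr5a1*, 0.07 for *Fezf1*, 0.08 for *Six3*, 0.02 for *Lhx1*, 0.04 for *Foxb1* and 0.03 for *Barhl1*. With 1 pool left out, the ranges of those that turned were -0.24 to 0.05 for *Bsx*, -0.17 to 0.01 for *Fezf1*, -0.05 to 0.06 for *Six3*, -0.08 to 0.03 for *Lhx1*, -0.05 to 0.03 for *Foxb1* and -0.13 to 0.05 for *Lmx1a*. The cause was not tested. Depth limits the factors of low level most, such as *Nr0b1* with at most 57 counts in a pool.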

Other observations

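Effector genes of the arcuate nucleus were compared with *Bsx*. *Agrp*, the agouti-related peptide gene, had 2.99, 4.41, 2.11 and 1.14 CPM in POMC-C451Af/f and 3.87, 2.43, 2.92 and 2.44 CPM in the controls. *Npy*, the neuropeptide Y gene, had 16.9, 20.7, 11.6 and 9.73 CPM against 19.1, 12.5, 12.9 and 13.2 CPM. Both were highest in POMC-C451Af/f replicate 2 and lowest in replicate 4 of that genotype, with log2 fold changes of -0.13 and 0.03. *Cartpt*, the gene of another arcuate peptide, had 70.7, 69.7, 115.5 and 71.2 CPM against 84.4, 66.9, 75.0 and 69.8 CPM, and *Ghrh*, the growth hormone-releasing hormone gene, 5.63, 6.13, 4.13 and 3.92 CPM against 6.25, 4.70, 5.13 and 3.34 CPM. *Cartpt* was highest in POMC-C451Af/f replicate 3, a low pool of *Bsx*, while *Ghrh* was highest in control replicate 1, as *Bsx* was, and lowest in control replicate 4. *Hdc*, the histamine-synthesizing gene of the tuberomammillary nucleus, had 44.0, 48.1, 29.8 and 31.0 CPM against 51.1, 37.2, 46.0 and 50.1 CPM, and POMC-C451Af/f replicates 3 and 4 were its lowest pools.

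Striatal genes, a list of 8, summed to 286.2, 312.2, 279.4 and 300.4 CPM in POMC-C451Af/f and to 270.3, 265.7, 261.4 and 280.4 CPM in the controls. *Penk* was the most abundant. At an unadjusted p under 0.05, 1 gene was higher (*Pde10a*, log2 fold change 0.24, edgeR, adjusted p = 0.878) and 0 were lower, where 2.70% and 2.39% of all genes were. The median log2 fold change was 0.06. Choroid plexus genes, a list of 6 of which 5 were tested, summed to 33.1, 33.7, 39.8 and 37.7 CPM in POMC-C451Af/f and to 39.8, 33.4, 34.0 and 32.9 CPM in the controls. *Clic6* was the most abundant of them, 0 had an unadjusted p under 0.05 by edgeR, and the median log2 fold change was 0.48. *Ttr*, the transthyretin gene, had 2.22, 1.64, 7.47 and 4.37 CPM against 2.65, 3.44, 0.695 and 1.48 CPM. *Prl*, the prolactin gene, had 163.1, 16.2, 7.83 and 134.9 CPM against 1013.4, 68.8, 10.7 and 14.96 CPM, and its highest pool was control replicate 1.

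As reference genes, *Actb* and *Gapdh* had log2 fold changes of -0.02 and 0.00. *Efr3b* and *Myo7a* were called, with log2 fold changes of 1.02 and -0.72 (edgeR, adjusted p = 3.56e-06 and 8.17e-05), and for both the groups did not overlap.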
